A study of Mus musculus with 7 samples.

Results

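Tnni3k, Runx1, Lmna, Lmnb1, Lmnb2 and Lbr are 6 genes with known or proposed effects on the ploidy of cardiomyocytes, and they were taken by gene symbol from the table of 17404 genes measured in the neonatal mouse ventricle. BALB/c substrains were compared: BALB/cByJ, with 3 libraries, and BALB/cJ, with 4 libraries. Every library was made, per the labels, from a pool of 3 to 4 hearts taken at postnatal day 4, an age at which heart muscle cells complete their last rounds of DNA synthesis and either divide or become polyploid. The mice of both strains were unmanipulated, with no treatment and no engineered allele. BALB/cJ carries a natural retroviral insertion in Zhx2 and BALB/cByJ a natural deletion in Cyth1. The study's methods give the same number of hearts per pool, while its results text gives a somewhat larger one. The labels do not give the sex of the pooled pups. Replicates are separate pools, so p-values set the difference between strains against the spread between pools within strains.

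TNNI3K is a protein kinase made almost only in heart muscle cells, named for its binding to cardiac troponin I, and its transcript level is known to differ between inbred mouse strains. RUNX1 is a DNA-binding transcription factor that works as a dimer with CBFB, is best known from blood cell formation, and returns in injured heart muscle cells. The lamins form the fibrous layer under the inner nuclear membrane. Lmna encodes the A-type lamins, whose level is high in stiff tissues such as heart, whereas Lmnb1 and Lmnb2 encode the B-type lamins, which stay anchored to the membrane by a farnesyl group. LBR, the lamin B receptor, is a membrane protein that ties heterochromatin and B-type lamins to the nuclear envelope and also has sterol reductase activity. Lamin B2 is known to affect nuclear division, and with it ploidy, in heart muscle cells.

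Promoter sequences of 5 of the 6 genes, all but Lmnb1, were matched in RefSeq on GRCm38.p6, and 4 windows are printed for the genes on which the results turn: the kinase, both starts of Runx1, and the first start of Lmnb2. Each window is the 250 bases ahead of an annotated transcription start, read 5′ to 3′ on the minus strand, on which all 3 of these genes lie. Capitals mark CCAAT (or its reverse complement ATTGG) and GGGCGG (or CCGCCC). These are the letters bound by NF-Y and by SP1-like factors, and TGTGGT (or ACCACA), the core of RUNX sites, was searched in the same way. The motifs do not overlap one another.
Tnni3k, chr3:155055408-155055657: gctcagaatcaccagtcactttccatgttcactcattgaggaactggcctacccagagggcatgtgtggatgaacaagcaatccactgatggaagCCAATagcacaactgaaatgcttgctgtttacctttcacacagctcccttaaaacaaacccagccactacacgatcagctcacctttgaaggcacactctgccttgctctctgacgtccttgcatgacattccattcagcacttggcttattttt
Runx1 distal start, chr16:92826075-92826324: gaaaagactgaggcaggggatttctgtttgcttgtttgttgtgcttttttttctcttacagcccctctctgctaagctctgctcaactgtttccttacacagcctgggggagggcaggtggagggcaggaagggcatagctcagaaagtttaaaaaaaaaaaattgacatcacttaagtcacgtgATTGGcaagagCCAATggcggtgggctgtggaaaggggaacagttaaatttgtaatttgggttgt
Runx1 proximal start, chr16:92697330-92697579: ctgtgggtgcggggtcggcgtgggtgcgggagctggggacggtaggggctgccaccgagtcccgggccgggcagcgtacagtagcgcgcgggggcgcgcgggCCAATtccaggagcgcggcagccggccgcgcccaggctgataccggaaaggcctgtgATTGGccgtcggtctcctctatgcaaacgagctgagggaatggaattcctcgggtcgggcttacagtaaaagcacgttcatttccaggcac
Lmnb2, chr10:80918246-80918495: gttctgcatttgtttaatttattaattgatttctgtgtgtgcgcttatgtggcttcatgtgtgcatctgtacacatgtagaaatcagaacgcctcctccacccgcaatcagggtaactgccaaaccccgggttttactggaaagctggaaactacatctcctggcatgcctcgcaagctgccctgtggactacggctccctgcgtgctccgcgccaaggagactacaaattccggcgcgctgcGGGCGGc
The windows differ in base composition. GC made up 47.2% of the Tnni3k window, 45.6% of the distal and 67.6% of the proximal Runx1 window, and 52.8% of the Lmnb2 window. CCAAT was found in Tnni3k and, in both orientations, ahead of each Runx1 start, whereas Lmnb2 held GGGCGG 1 base before the start shown. A second annotated start of Lmnb2, whose window (chr10:80906413-80906662, 58.0% GC) is not printed, held none of these motifs. Of 32851 windows of the same length, 33.8% held CCAAT, 32.7% GGGCGG and 14.0% TGTGGT, so the matches are of common kinds. TGTGGT was in none of the 4 windows. The table gives 1 value for the whole Runx1 gene, so transcripts from its distal and proximal starts cannot be told apart in these data.

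All values below are the deposited expression values, which are normalized to library depth and gene length, and levels of different genes are compared on that scale. Differences between strains are on the log2(value + 1) scale, with a positive sign for a higher level in BALB/cByJ, and come from limma fitted across 12715 genes whose mean over the 7 libraries was at least 0.5. A gene was called at a Benjamini-Hochberg adjusted p under 0.05. By that rule 210 of the 12715 genes, or 1.65%, were called, 98 of them higher (0.771%) and 112 lower (0.881%) in BALB/cByJ. The split moved with the scaling, with 108 higher and 49 lower after quantile normalization and 138 higher and 59 lower after median ratio scaling. The labels were checked on both known mutations. The BALB/cByJ libraries had 6.83 ± 1.27 (SD, n = 3) for Zhx2, against 0.388 ± 0.132 (SD, n = 4) in the BALB/cJ libraries, and 0.14 ± 0.0458 for Cyth1, against 26.3 ± 0.610. Summed values of a library were 543023 to 628977, and 11815 to 11979 genes had a value of at least 1.

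None of the 6 genes was called. Of the 5 that were tested, Lmnb1 and Lmnb2 had an unadjusted p under 0.05, both with lower levels in BALB/cByJ, beside 18.3% of all tested genes in either direction and 13.3% in the lower direction. Runx1 was below the expression minimum and was not tested. Of the 5 tested differences 4 were below 0, with a median of -0.16, while the median over all tested genes was -0.073. Most tested genes thus also had a difference below 0.

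**Figure D1:**
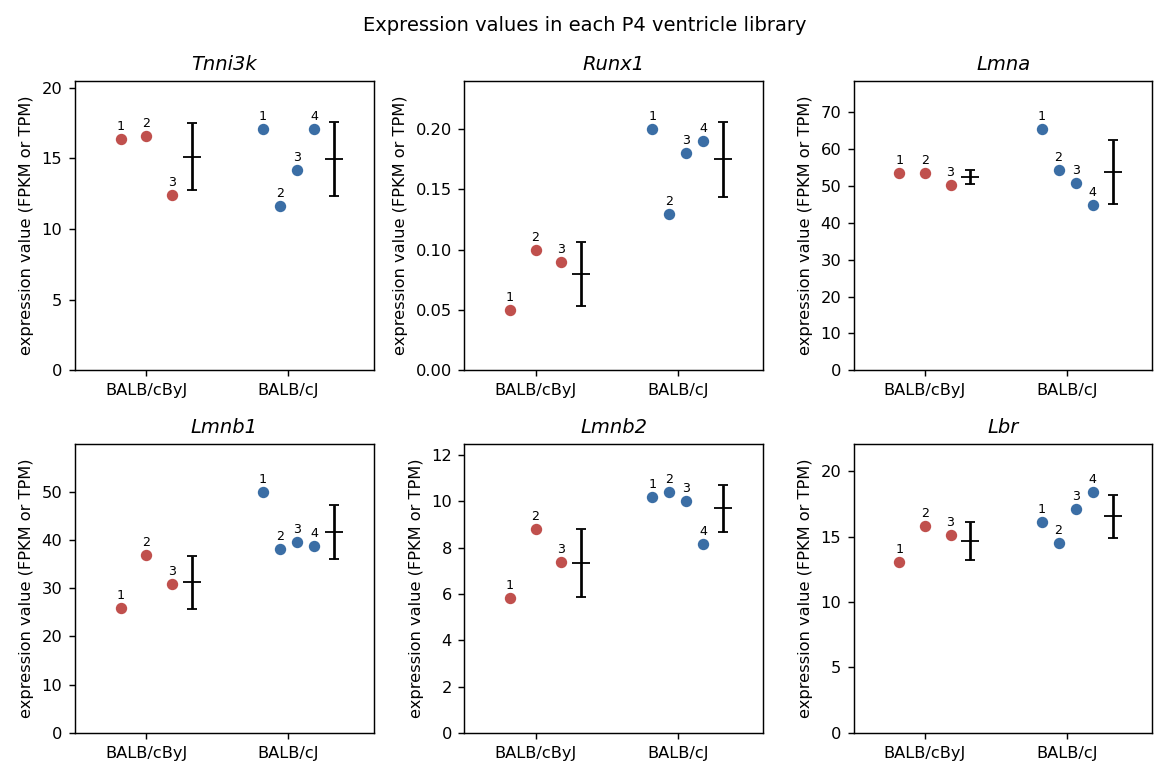
Deposited expression value (vertical axes, starting at 0) of each of the 6 genes in the 3 BALB/cByJ and 4 BALB/cJ libraries. Points are libraries, numbered as in the labels, with the mean and SD of each strain beside them. The strains overlap for Tnni3k, Lmna, Lmnb2 and Lbr, while every BALB/cByJ point lies below every BALB/cJ point for Runx1 and Lmnb1. Among the 12715 tested genes, which include Lmnb1 but not Runx1, 12.6% have that order.

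The order of the levels over all 7 libraries was Lmna at 53.2 ± 6.24 (SD), Lmnb1 at 37.1 ± 7.50, Lbr at 15.7 ± 1.74, Tnni3k at 15.0 ± 2.30, Lmnb2 at 8.68 ± 1.69 and Runx1 at 0.134 ± 0.0574. Lbr and Tnni3k, next to each other in that order, overlapped widely. Lmna and Lmnb1 also came close, with a highest Lmnb1 value of 49.92 and a lowest Lmna value of 44.86. In the ranking of all genes of the table by mean level, Lmna lay at percentile 91.2, Lmnb1 at 87.2, Lbr at 72.9, Tnni3k at 72.1, Lmnb2 at 60.1 and Runx1 at 18.8.

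Tnni3k (gene ID 435766, GRCm38 chr3:154786291-155055407) showed no detectable strain difference. Its value was 16.34, 16.6 and 12.39 in BALB/cByJ libraries 1 to 3 and 17.06, 11.62, 14.15 and 17.06 in BALB/cJ libraries 1 to 4. Each strain thus held both low and high pools, and the strains overlapped over nearly their whole range. The means were 15.1 ± 2.36 (SD, n = 3) and 15.0 ± 2.62 (SD, n = 4), and the log2 difference was 0.02 with a standard error of 0.14 (limma adjusted p = 0.961). The 95% interval of that difference was -0.28 to 0.32. As a ratio of value + 1 in BALB/cByJ to that in BALB/cJ, it leaves room for 0.821 to 1.25. These bounds are not the smallest difference that would have been called, which was not determined for this gene. The sign of the estimate turned negative when 1 of BALB/cByJ 1, BALB/cByJ 2, BALB/cJ 2 or BALB/cJ 3 was left out, with estimates from -0.09 to 0.14 over all 7 omissions, and also when every library was set to the same sum (-0.03).

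The partner for which TNNI3K is named, cardiac troponin I, had a far higher level than Tnni3k itself. Tnni3, cardiac troponin I, was 4394 ± 601 in BALB/cByJ and 3627 ± 278 in BALB/cJ, with a log2 difference of 0.27 (adjusted p = 0.403). Per 1000 units of Tnni3 there were 3.87, 4.26 and 2.45 units of Tnni3k in BALB/cByJ and 4.71, 2.93, 3.91 and 5.19 in BALB/cJ. These shares overlapped between strains, as Tnni3k itself did. Tnni1, the slow skeletal troponin I that the fetal heart uses before Tnni3, was 1635 ± 83.9 against 1369 ± 117, with a limma adjusted p of 0.327. It was higher in every BALB/cByJ library than in every BALB/cJ library, as were 4.33% of all tested genes. The ratio of Tnni3 to Tnni1, a measure of how far the postnatal troponin I switch has gone, was 2.61, 2.49 and 2.93 in BALB/cByJ and 2.86, 3.07, 2.37 and 2.37 in BALB/cJ, without separation of the strains.

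Of the 8 troponin genes, 1 was called. Tnnt1, the slow skeletal troponin T, rose 3.29-fold, from 33.9 ± 3.95 in BALB/cJ to 112 ± 12.3 in BALB/cByJ (log2 difference 1.69 with a standard error of 0.12, adjusted p = 5.996e-07). Its 3 BALB/cByJ values, 98.79, 123.29 and 112.57, lay far above the BALB/cJ values of 33.42, 36.3, 28.48 and 37.27. The genes of the main cardiac complex did not pass the test, with log2 differences of 0.14 for Tnnt2 (cardiac troponin T) and 0.17 for Tnnc1 (cardiac troponin C). Fast skeletal members were low, with 0.45 for Tnni2 (adjusted p = 0.264), -0.18 for Tnnt3 and -0.28 for Tnnc2, and Tnnc2 was listed at 0 in at least 1 library of each strain. BALB/cJ 3 decided these values. It had 3.97 for Tnnt3 and 3.73 for Tnnc2, far above every other library, and without it the Tnnt3 difference was 0.26 (adjusted p = 0.427), Tnnc2 fell below the expression minimum, and Tnni2 passed the test with 0.68 (adjusted p = 0.036).

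TNNI3K has been tied to the p38 stress kinases in mouse hearts, and none of the 8 tested genes of that pathway was called or had an unadjusted p under 0.05. Mapk14, which encodes p38 alpha, the main cardiac form, was 22.1 ± 3.33 in BALB/cByJ and 25.8 ± 1.37 in BALB/cJ (log2 difference -0.22, adjusted p = 0.296). Mapkapk2, a kinase that p38 activates, was 91.7 ± 10.9 against 106 ± 4.94 (-0.21, limma adjusted p = 0.310). Mapkapk2 was lower in each BALB/cByJ library than in each BALB/cJ library, as were 12.6% of all tested genes. Its relative Mapkapk3 had a difference of -0.12. Among the upstream kinases, Map2k3 had -0.12, Map2k6 0.05 and Map3k5, which encodes ASK1, -0.03. The other p38 forms were Mapk11 at -0.19 and Mapk12, the form enriched in striated muscle, at 0.11, and Mapk13 was under the expression minimum. The list's median was -0.12, beside -0.073 for all genes.

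Runx1 (gene ID 12394, GRCm38 chr16:92601466-92826074) was close to the lower end of the scale in every library and lower in BALB/cByJ. Its value was 0.05, 0.1 and 0.09 in BALB/cByJ libraries 1 to 3 and 0.2, 0.13, 0.18 and 0.19 in BALB/cJ libraries 1 to 4. The highest BALB/cByJ value, 0.1, was under the lowest BALB/cJ value, 0.13. The means were 0.08 ± 0.0265 (SD, n = 3) and 0.175 ± 0.0311 (SD, n = 4), a level 54.3% lower in BALB/cByJ, or 2.19-fold higher in BALB/cJ. An exact two-sided permutation test of the 7 values gave p = 0.0571, which is the smallest that the 35 arrangements allow. With no expression minimum, so that all 17404 genes entered, limma gave a difference of -0.12 with a standard error of 0.04 and an adjusted p of 0.191. With a pseudocount of 0.1 in place of 1 it was -0.62 (adjusted p = 0.221), since the larger pseudocount compresses values this low. The table is written to steps of 0.01 and its read depth is not known, so the counting error of values between 0.05 and 0.2 cannot be stated. Among the 12715 tested genes, 12.6% had every BALB/cByJ library below every BALB/cJ library, and 4.33% the reverse. Runx1 is not one of these genes, and the share among genes at levels as low was not counted.

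Runx1 is also made by blood-forming and lymphoid cells, and markers of thymocytes and T cells differed between pools. The summed value of 11 such markers was 1.18, 0.92 and 1.15 in BALB/cByJ and 2.25, 0.92, 18.24 and 6.28 in BALB/cJ. The high sums were those of BALB/cJ 3 and BALB/cJ 4. Of the 4 markers of this list that could be tested, none was called, and their median difference was -0.69. Of these 4, 3 had an unadjusted limma p under 0.05, all lower in BALB/cByJ. BALB/cJ 2, with a sum of 0.92, had 0.13 for Runx1, and BALB/cJ 1, with a sum of 2.25, had 0.2. The part of these markers in the Runx1 difference was not tested. Cd8b1, which marks cytotoxic T cells, was listed at 0 in all 3 BALB/cByJ libraries. Values this low were common in the list, since 7 of the 11 markers were under the expression minimum. BALB/cJ 2 also had the same sum, 0.92, as BALB/cByJ 2. Megakaryocyte and platelet markers, of which 2 of 5 could be tested and none was called, summed to 12.56 to 14.8 in BALB/cByJ and 11.86 to 14.34 in BALB/cJ. In these bulk samples fewer cells of a type and less RNA per cell cannot be told apart.

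The partners of RUNX1 other than Runx2 and Runx3 had higher values than Runx1, and their differences were small and below 0. Of 12 genes in this list, 10 were tested, 0 were called by limma, 1 had an unadjusted p under 0.05, and all 10 differences were below 0 with a median of -0.16. The median of all tested genes was also below 0, at -0.073. Cbfb, the common dimer partner, was 24.84, 29.26 and 27.57 in BALB/cByJ and 28.77, 32.73, 35.21 and 39.59 in BALB/cJ. Only BALB/cByJ 2 and BALB/cJ 1 crossed. The means were 27.2 ± 2.23 and 34.1 ± 4.53 with a difference of -0.31 and an adjusted p of 0.182. Corepressors of RUNX proteins followed with -0.25 for Tle4, -0.11 for Tle3 and -0.06 for Tle1, and members of the ETO family with -0.18 for Cbfa2t3, -0.17 for Runx1t1 and -0.15 for Cbfa2t2. ETS-family factors, which bind next to RUNX1 in endothelial and blood cells, had -0.21 (Erg), -0.16 (Ets1) and -0.09 (Fli1). The other RUNX genes were as low as Runx1 but did not separate the strains, with means of 0.0767 and 0.09 for Runx2 and 0.123 and 0.16 for Runx3. Markers of endothelial cells, which make these ETS factors in the heart, had 0 calls among 6 genes and a median of 0.01.

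Among the lamins, both B-type genes had lower mean values in BALB/cByJ under every scaling, while the A-type gene had almost equal means, and no single difference passed the test. Lmnb1 (gene ID 16906, GRCm38 chr18:56707813-56753424) was 25.93, 36.89 and 30.89 in BALB/cByJ libraries 1 to 3 and 49.92, 38, 39.64 and 38.78 in BALB/cJ libraries 1 to 4. The strains did not overlap, though BALB/cByJ 2 and BALB/cJ 2 were only about 1 unit apart. Among all tested genes, 12.6% likewise had every BALB/cByJ library below every BALB/cJ library. The means were 31.2 ± 5.49 (SD, n = 3) and 41.6 ± 5.60 (SD, n = 4), 24.9% lower in BALB/cByJ. The log2 difference was -0.41 with a standard error of 0.13 and a 95% interval from -0.68 to -0.13, an unadjusted limma p of 0.00676 and an adjusted p of 0.121. It ranked 708 by p among the tested genes. BALB/cJ 1 stood apart from the other BALB/cJ pools, and without it the difference was -0.32 (adjusted p = 0.182). Without BALB/cByJ 1, the lowest pool, it was -0.28 (adjusted p = 0.381).

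Lmnb2 (gene ID 16907, GRCm38 chr10:80901363-80918245) followed the same pattern at a lower level. Its value was 5.82, 8.79 and 7.38 in BALB/cByJ and 10.17, 10.4, 10 and 8.17 in BALB/cJ. BALB/cByJ 2 at 8.79 exceeded BALB/cJ 4 at 8.17, so the strains overlapped. The means were 7.33 ± 1.49 and 9.69 ± 1.02, 24.3% lower in BALB/cByJ, with a log2 difference of -0.37 (standard error 0.13, 95% interval -0.65 to -0.09, unadjusted p = 0.0141, adjusted p = 0.164). Without BALB/cByJ 1 the difference was -0.23 (adjusted p = 0.466), and then neither B-type gene had an unadjusted p under 0.05.

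Lmna (gene ID 16905, GRCm38 chr3:88481148-88509932) was 53.48, 53.44 and 50.33 in BALB/cByJ and 65.4, 54.21, 50.79 and 44.86 in BALB/cJ. The BALB/cByJ pools were nearly alike and lay inside the wide BALB/cJ range. The means were 52.4 ± 1.81 and 53.8 ± 8.64, with a log2 difference of -0.02 (standard error 0.12, adjusted p = 0.935). The 95% interval, -0.28 to 0.23, leaves room for ratios of value + 1 from 0.824 to 1.17. The sign changed without BALB/cByJ 3, without BALB/cJ 1 (0.07) and after median ratio scaling (0.05).

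The ratio of A-type to B-type lamin values did not overlap between the strains. Lmnb1, which makes up most of the denominator, did not overlap by itself either, so the ratio is not a separate result. The value of Lmna divided by the sum of Lmnb1 and Lmnb2 was 1.68, 1.17 and 1.32 in BALB/cByJ and 1.09, 1.12, 1.02 and 0.955 in BALB/cJ. All BALB/cByJ ratios were above all BALB/cJ ratios, with means of 1.39 ± 0.265 and 1.05 ± 0.073. A ratio of this kind does not change when all values of a library are multiplied by the same factor. Lmna made up 53.9% to 62.7% of the 3 lamins in BALB/cByJ and 48.9% to 52.8% in BALB/cJ, while the share of Lmnb1 was 30.4% to 37.2% and 37.0% to 42.2%. The 2 B-type genes kept their proportion to each other, with Lmnb1 over Lmnb2 at 4.28 ± 0.153 in BALB/cByJ and 4.32 ± 0.605 in BALB/cJ. These ratios were chosen with the levels known and carry no test. How many ratios of other genes separate the strains was not counted.

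**Figure D2:**
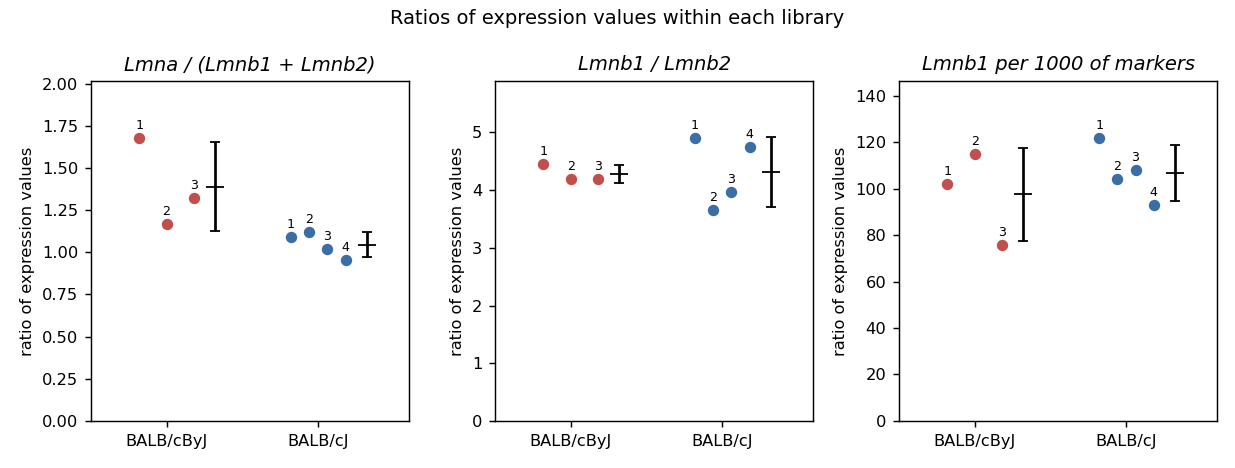
Ratios of deposited expression values within each library (vertical axes, starting at 0) for Lmna over the sum of Lmnb1 and Lmnb2, Lmnb1 over Lmnb2, and Lmnb1 per 1000 units of the 12 summed proliferation markers. Points are libraries, numbered as in the labels, with the mean and SD of each strain beside them. The first ratio is higher in all BALB/cByJ libraries (1.17 to 1.68 against 0.955 to 1.12), and the second and the third overlap (75.8 to 115 against 93.0 to 122 for the third). Most of the first ratio's denominator is Lmnb1, which by itself does not overlap between the strains.

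B-type lamin transcripts are known to be higher in dividing cells, and the summed level of proliferation markers was also below the BALB/cJ range in BALB/cByJ 1 and 2. The summed value of 12 such markers was 253.5, 320.6 and 407.3 in BALB/cByJ and 409.3, 366.4, 366.6 and 417.2 in BALB/cJ. BALB/cByJ 3 was inside the BALB/cJ range of this sum. Of the 12 markers, 0 were called, 5 had an unadjusted p under 0.05, all lower in BALB/cByJ, and the median was -0.26. Plk1, a mitotic kinase, had -0.57 (adjusted p = 0.0817), Ccna2 (cyclin A2) -0.42, Birc5 (survivin) -0.36, Aurkb (Aurora B kinase) -0.33, Ccnb1 (cyclin B1) -0.32, Cenpf -0.28 and Ccnb2 (cyclin B2) -0.24. The smaller differences were -0.17 for Mki67, the gene of the Ki-67 antigen, -0.17 for Bub1, -0.15 for Cdk1 and -0.15 for Kif11. Top2a had a difference of 0.01. Relative to the markers, Lmnb1 did not separate the strains: per 1000 units of the summed markers there were 102, 115 and 75.8 units of Lmnb1 in BALB/cByJ and 122, 104, 108 and 93.0 in BALB/cJ. Taken against each marker in turn, the ratio of Lmnb1 overlapped between strains for 11 of the 12. The exception was Top2a, whose level was nearly equal in both strains. The mean ratio was lower in BALB/cByJ for 10 of the 12 markers and higher for 2, Ccna2 and Plk1. Per 1000 units of the summed markers, the mean of Lmnb1 was 97.7 in BALB/cByJ and 107 in BALB/cJ. The part of the proliferation markers in the Lmnb1 difference was not tested. Without BALB/cByJ 3, Birc5 passed the test (adjusted p = 0.0394).

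The pools also differed in Y-linked transcripts. The summed value of Ddx3y, Uty, Kdm5d and Eif2s3y was 128.3, 87.63 and 80.19 in BALB/cByJ and 0.04, 14.75, 22.64 and 37.61 in BALB/cJ, and all 4 genes were called higher in BALB/cByJ. None of the 4 calls held without BALB/cByJ 1 (adjusted p from 0.0619 to 0.193) or without BALB/cByJ 3 (0.0705 to 0.139), while the strains did not overlap for any of them. BALB/cJ 1, the library nearly free of these transcripts, was also the one with the highest Lmnb1 and Lmna. With this sum added to the fit as a second term, the difference of Lmnb1 was -0.16 (adjusted p = 0.612), that of Lmnb2 -0.24 (adjusted p = 0.505) and that of Lmna 0.25 (adjusted p = 0.336). Since every BALB/cByJ pool exceeded every BALB/cJ pool in this sum, the sex makeup of the pools and the strain cannot be told apart for these genes. Cardiomyocyte markers summed to 12080 to 14070 in BALB/cByJ and 10750 to 13980 in BALB/cJ, so the labelled tissue was seen in every library, with 0 of 7 called and a median of 0.02. Marker lists of fibroblasts (6 genes), macrophages (5), neutrophils (5 of 6 tested) and erythroid cells (4 of 6 tested) held no called gene either, with medians of 0.15, -0.18, 0.74 and -0.66. All 5 tested neutrophil genes had an unadjusted p under 0.05 with higher levels in BALB/cByJ, and without BALB/cJ 3 all 5 were called, with adjusted p from 0.00122 (S100a9) to 0.0243 (Ltf). Ngp was also called with all 7 libraries when the expression minimum was 2 (limma adjusted p = 0.0463). The erythroid genes Hba-a1 and Hba-a2 had lower values in every BALB/cByJ library, as did 12.6% of all tested genes. Both were called after quantile normalization (limma adjusted p = 0.0282 and 0.0161) and with the same sum in every library (0.0326 and 0.0321). Hba-a2 was also called without BALB/cJ 1 (0.0422), and Dcn of the fibroblast list without BALB/cByJ 2 (0.0475). Their part in the differences of the lamins and Runx1 was not tested.

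Genes of the enzymes that process the farnesylated ends of prelamin A and the B-type lamins had differences in both directions. None of 5 was called, 2 had an unadjusted p under 0.05 with a lower level and 1 with a higher level in BALB/cByJ. Rce1, which cuts the end of farnesylated proteins, was 9.28 ± 0.200 against 12.1 ± 1.25 (log2 difference -0.34, adjusted p = 0.121), and Fntb, the beta subunit of farnesyltransferase, 6.14 ± 0.625 against 7.97 ± 0.622 (-0.33, adjusted p = 0.144). Both were lower in each BALB/cByJ library than in each BALB/cJ library, as were 12.6% of all tested genes. Another 4.33% of the tested genes had the reverse order. Zmpste24, the protease that completes the maturation of prelamin A, had the opposite direction, with 18.1 ± 1.57 against 15.2 ± 0.850 (0.23, adjusted p = 0.247), and also separated the strains. Icmt, the methyltransferase, had -0.14 and Fnta, the alpha subunit of the transferase, 0.06.

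Lbr (gene ID 98386, GRCm38 chr1:181815315-181842401) had a small difference within the spread of the pools. Its value was 13.06, 15.84 and 15.12 in BALB/cByJ and 16.08, 14.53, 17.12 and 18.41 in BALB/cJ. BALB/cByJ 2 and 3 were both above BALB/cJ 2, and the strains overlapped. The means were 14.7 ± 1.44 and 16.5 ± 1.64, 11.3% lower in BALB/cByJ, with a log2 difference of -0.16 (standard error 0.11, 95% interval -0.40 to 0.08, adjusted p = 0.452).

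LBR shares its sterol reductase step, on the path from lanosterol to cholesterol, with TM7SF2. Tm7sf2 had a mean of 2.003 ± 0.146 in BALB/cByJ and 1.86 ± 0.377 in BALB/cJ (log2 difference 0.08, adjusted p = 0.778), a level well below that of Lbr in all 7 libraries. Of 8 genes of enzymes after lanosterol none was called, 2 had an unadjusted p under 0.05, both lower in BALB/cByJ, and the median was -0.11. Dhcr7, the last reductase of the pathway, was 6.84 ± 0.777 against 9.08 ± 0.859 (-0.36, adjusted p = 0.121), and Cyp51, the lanosterol demethylase that works just before LBR, 7.30 ± 0.612 against 8.88 ± 0.870 (-0.25, adjusted p = 0.251). The other enzymes had -0.30 (Nsdhl), -0.14 (Msmo1), -0.08 (Sc5d), -0.08 (Ebp) and -0.02 (Hsd17b7).

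A list of 16 genes around the lamina held inner nuclear membrane proteins, the torsin ATPase Tor1a with its activators, and the chromatin proteins Banf1, Cbx1, Cbx3 and Cbx5, and none was called. Of these 16 genes 12 had a difference below 0, 3 an unadjusted p under 0.05, all lower in BALB/cByJ, and the median was -0.12. Over all tested genes the median was -0.073. Tor1aip1, whose product LAP1 binds lamins and activates torsin, was 16.03, 19.51 and 13.55 in BALB/cByJ and 23.47, 19.9, 23.03 and 23.98 in BALB/cJ. Every BALB/cByJ value was below every BALB/cJ value, as for 12.6% of all tested genes, though BALB/cByJ 2 nearly reached BALB/cJ 2. The difference was -0.45 (adjusted p = 0.0796), and the gene passed the test without BALB/cByJ 2 (adjusted p = 0.0434). Tmem43, which encodes LUMA, an inner nuclear membrane protein mutated in a human arrhythmogenic cardiomyopathy, was 8.58 ± 0.981 against 11.3 ± 0.787 (-0.36, adjusted p = 0.112). Tmem201, which encodes SAMP1, had -0.32 (adjusted p = 0.211), and Tor1aip2, the related torsin activator LULL1, had 0.23 (adjusted p = 0.281). The other 12 genes, among them the LEM-domain genes Emd (emerin), Tmpo (LAP2) and Lemd3 (MAN1), gave larger p-values.

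The LINC complex couples the lamina to the cytoskeleton through SUN and nesprin proteins. All 5 tested members had a difference below 0, none was called, and the median was -0.15, beside -0.073 for all tested genes. Syne2, which encodes nesprin 2, was 1.74 ± 0.224 in BALB/cByJ and 2.27 ± 0.171 in BALB/cJ (-0.25, unadjusted p = 0.0466, adjusted p = 0.263). Sun2 had -0.23 (adjusted p = 0.279), Syne3 -0.15, Sun1 -0.10 and Syne1, which encodes nesprin 1, -0.09. Syne4 was under the expression minimum.

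Nuclear pore genes, 30 in number, were not called either. Differences were below 0 for 25 of them, but the median of -0.09 was close to that of all genes, and 5 had an unadjusted p under 0.05, which is a share close to the 18.3% of all tested genes. Pom121, a membrane-anchored pore protein, was 8.09 ± 1.68 against 11.3 ± 1.47 (-0.44, adjusted p = 0.120). Nup214, on the cytoplasmic face, was 4.52 ± 0.512 against 6.19 ± 0.673 (-0.38, adjusted p = 0.115). Nup93, of the inner ring, was 12.1 ± 1.602 against 15.5 ± 2.32 (-0.32, adjusted p = 0.199), and Nup50, at the nuclear basket, 8.27 ± 1.25 against 10.2 ± 0.652 (-0.29, adjusted p = 0.208).

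**Figure D3:**
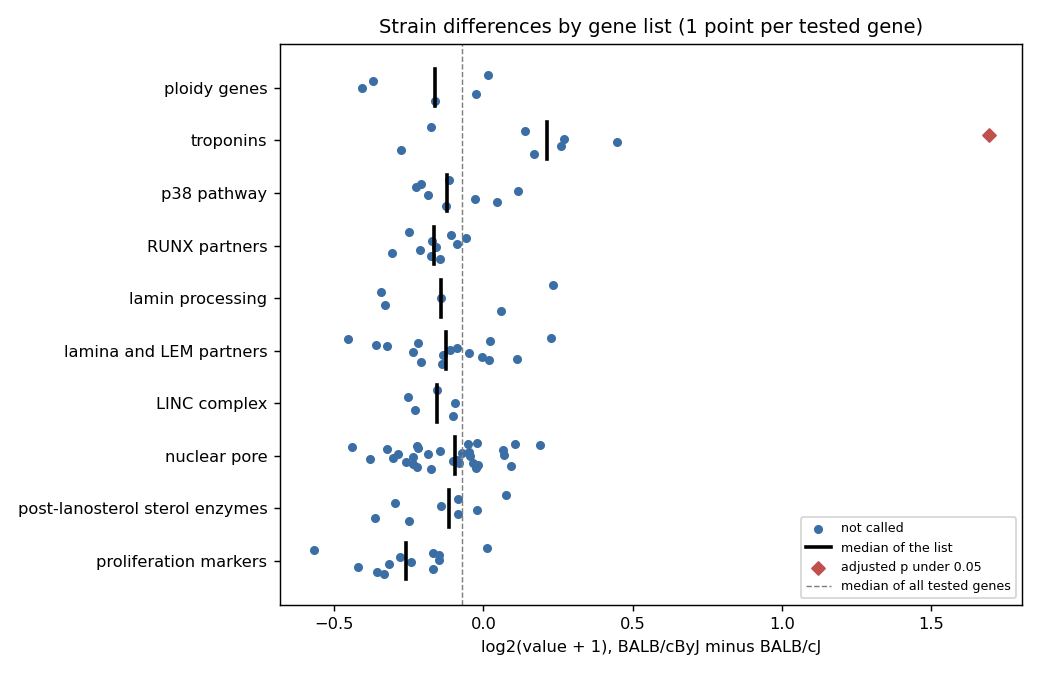
Log2 difference between BALB/cByJ and BALB/cJ (horizontal axis) of each tested gene in the lists around the 6 genes and in the proliferation markers, on the log2(value + 1) scale. Points are genes, the diamond is the called gene, the bar on each row is the list's median, and the dashed line across all rows is the median of all 12715 tested genes, -0.073. Of the lists shown, the troponins have the only called gene, Tnnt1 at 1.69, and the medians of the nuclear envelope lists lie between -0.15 and -0.09.

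The medians moved with the scaling of the libraries. The median of the 5 tested genes was -0.09 after quantile normalization, -0.09 after median ratio scaling and -0.21 with every library set to the same sum, and it stayed below 0 in each of these. Medians of the p38, RUNX partner, lamin processing, lamina, LINC, pore and sterol lists were below 0 and that of the troponins above 0 under each of these scalings too. Over all tested genes the median was -0.013 after quantile normalization, -0.005 after median ratio scaling and -0.116 with the same sum. It was below 0 in each as well, so a median below 0 does not by itself set a list apart.

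**Figure D4:**
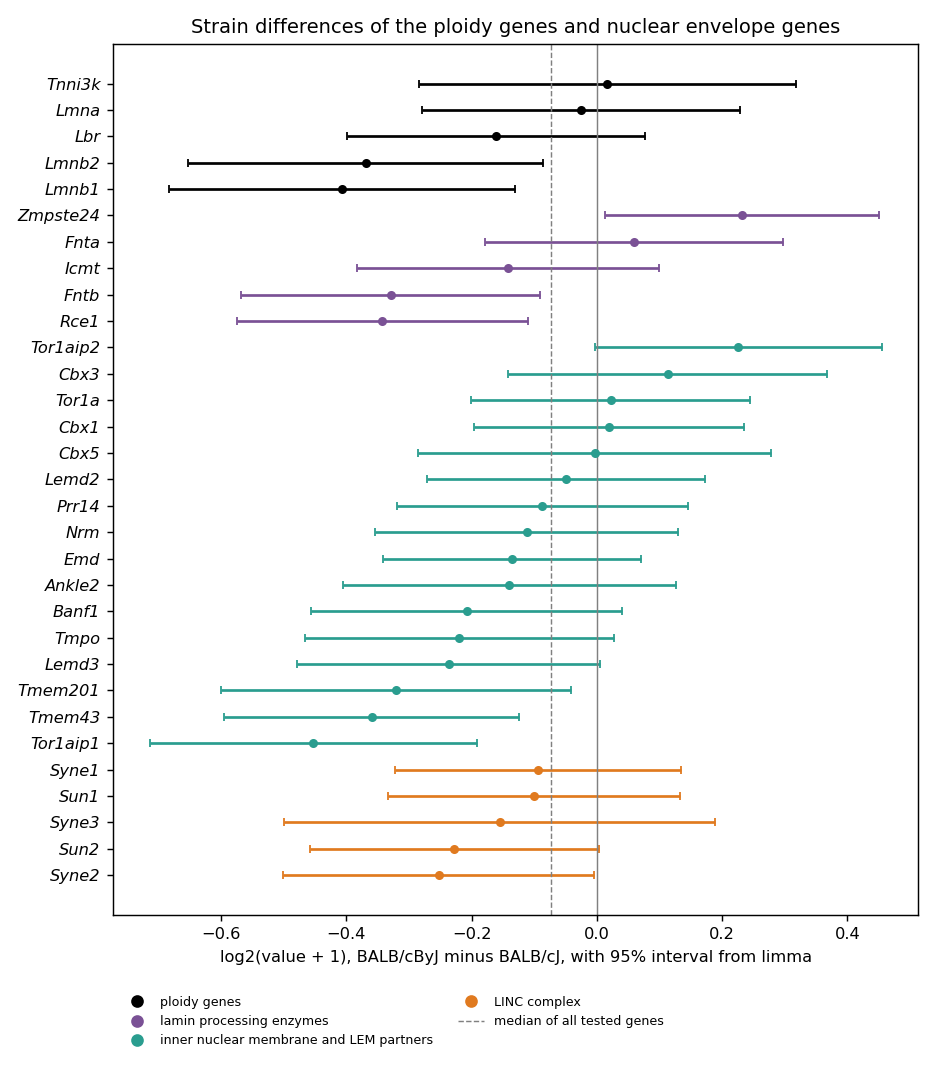
Log2 difference between BALB/cByJ and BALB/cJ (horizontal axis) of Tnni3k, Lmna, Lmnb1, Lmnb2 and Lbr, then of the lamin processing enzymes, the inner nuclear membrane and LEM partners and the LINC complex, on the log2(value + 1) scale. Points are fitted differences, bars are 95% intervals from limma, colors are the lists, and the dashed line is the median of all tested genes. The intervals of Lmnb1 (-0.68 to -0.13) and Lmnb2 (-0.65 to -0.09) lie below 0 before adjustment for the number of genes tested, and those of Tnni3k, Lmna and Lbr include 0.

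Genes annotated within 0.5 Mb of the 6 genes were read for strain differences of their surroundings, and no annotated gene in the table overlapped a member. Of 87 tested neighbors, 2 (2.3%) were called and 19 (21.8%) had an unadjusted p under 0.05, shares near the 1.65% and 18.3% of all tested genes. Both called genes lay within the window around Lmna. Pmf1, a kinetochore protein gene 70703 bases from Lmna, was 34.83, 37.97 and 38.31 in BALB/cByJ and 48.98, 54.16, 50.63 and 49.25 in BALB/cJ. The difference was -0.44 (standard error 0.09, adjusted p = 0.0309). Iqgap3, a scaffold gene expressed in proliferating cells, 360100 bases from Lmna, was 5.61, 8.17 and 7.72 in BALB/cByJ and 15.4, 10.63, 10.67 and 11.23 in BALB/cJ (-0.67, standard error 0.15, adjusted p = 0.0346). For both genes every BALB/cByJ value was below every BALB/cJ value, as for 12.6% of all tested genes. Pmf1 kept its call only when the library left out was BALB/cJ 1 (adjusted p = 0.0304), with up to 0.155 without BALB/cByJ 1, and Iqgap3 lost it without BALB/cByJ 1 (0.169), BALB/cByJ 3 (0.0953), BALB/cJ 1 (0.0558) or BALB/cJ 4 (0.0665). Neither passed with the Y-linked sum in the fit (adjusted p = 0.135 for Pmf1 and 0.333 for Iqgap3), with no expression filter (0.0601 and 0.137), after median ratio scaling (0.0666 and 0.071) or with a replicate block (0.204 and 0.187). Iqgap3 also missed the threshold after quantile normalization (0.0933) and with the same sum in every library (0.0573). The 3 tested neighbors of Tnni3k, the 4 of Runx1, the 6 of Lmnb1, the 47 of Lmnb2 and the 4 of Lbr held no call.

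The levels of the 6 genes across the 7 libraries were compared with one another as a description only. Strain and Y-linked level differ among the 7 libraries, and all genes of a library share its scaling. Their part in the correlations was not tested. Lmnb1 and Lmnb2 had a Pearson r of 0.88, and Lmnb1 and Runx1 0.90. Runx1 also went with Lbr (0.82) and Lmnb2 (0.74), whereas Lmna had 0.42 with Lmnb1 and -0.35 with Lbr. Tnni3k was unlike the others, with r from -0.22 to 0.28. Over all tested genes, those most like Tnni3k were Gm10698 (r = 0.967), Faf2 (0.962) and Nhlrc3 (0.961), and those most like Runx1 were Dvl2 (0.993), Gm46221 (0.992) and Add3 (0.990). Most like Lmna were Pld3 (0.972), Ssc5d (0.970) and Slc35f6 (0.958), most like Lmnb1 Irf2bp1 (0.990), Mcm3ap (0.989) and Srrt (0.983), most like Lmnb2 Aarsd1 (0.993), Ess2 (0.988) and Eef1aknmt (0.982), and most like Lbr Atg16l1 (0.994), Zfp334 (0.990) and Ints6 (0.988). With 7 points such values are common: 311 genes had an r above 0.9 with Runx1, 272 with Lmnb1, 208 with Lbr, 133 with Lmnb2 and 36 each with Tnni3k and Lmna.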

How the data were processed

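RNA from pooled ventricles was extracted with TRIzol and an RNeasy kit, and libraries were made and sequenced by BGI Genomics. The authors deposited 1 table of expression signal, corrected for depth and gene length, to 2 decimals. Whether it is FPKM or TPM is not stated. The build is mm10 per the submitters' processing notes. Not given in the sources used here are the aligner and the quantification. Read depth is unknown, so the spread between pools is the only error.

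After leaving out genes whose mean was under 0.5, strain was fitted to log2(value + 1) with limma 3.58.1 (variance trend, R 4.3.3) with Benjamini-Hochberg adjustment. The table holds no counts, so count tests were not run. Runx1, under the minimum, was compared by an exact permutation test (scipy 1.17.1). Symbols, coordinates and promoters came from RefSeq (GRCm38.p6), with 17289 of 17404 gene IDs matched.

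The 6 genes and the gene lists were chosen with earlier results of these data known. The text names all 6 genes, every member of small lists around them, the called genes or the 4 smallest p of larger lists, called neighbors within 0.5 Mb, and the 3 genes most alike each of the 6. Markers of other cell types are given mainly as sums, and a few were named after their values were seen. Alternatives were another pseudocount, filter and scaling, a replicate block, a Y-linked covariate and leaving out each library. A withheld gene is not reported here.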

Additional observations from a re-analysis of the deposited data

Results flagged for a closer look

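The Lmnb1 value of BALB/cJ 1, 49.9, stood apart from the other 3 BALB/cJ pools, which lay between 38 and 39.64. Its gap to the nearest of them was 0.862 of the range of the 4 pools, above Dixon's 95% critical value for 4 values. Of 26 groups of 4 values checked it was the only such case, and chance alone gives about 1 in 20. The same pool had 65.4 for Lmna, 0.2 for Runx1 and a summed Y-linked value of 0.04. Without it Lmnb1 differed by -0.32 between strains (limma adjusted p = 0.182).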

How the results depend on the processing

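None of the 6 genes was called under any of the 17 alternatives. Lmnb1, Lmnb2 and Lbr stayed below 0 in all of them, with adjusted p from 0.0687 to 0.612, 0.0886 to 0.505 and 0.321 to 0.802. Leaving out 1 library gave -0.53 to -0.28 for Lmnb1, -0.49 to -0.23 for Lmnb2, -0.22 to -0.09 for Lbr and -0.14 to -0.10 for Runx1. Tnni3k ranged from -0.0914 to 0.145 over the same omissions and was -0.0323 with the same sum in every library. Lmna ranged from -0.106 to 0.0718 and was 0.0527 after median ratio scaling and 0.25 with the Y-linked covariate. Runx1 was -0.62 with a pseudocount of 0.1, with and without a filter; the filter decides whether it is tested. The cause of the sign changes was not tested. The count of called genes, 210, was 39 with no filter, 46 with the Y-linked covariate and 64 to 186 with 1 library left out. With a pseudocount of 0.1 and no filter, chosen after seeing the data, it was 59.

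Library numbers are shared between strains. The correlation of deviations between libraries of the same number was -0.19, -0.26 and -0.05. The highest between any libraries of different strains was 0.39, for BALB/cByJ 2 and BALB/cJ 1. So few pools cannot decide whether the numbers pair them. With the number as a replicate block, 58 genes were called, against 82 for the same 6 libraries without the block, a fit added after seeing the data. Under the block the difference was 0.08 for Tnni3k, -0.11 for Lmna, -0.44 for Lmnb1 (adjusted p = 0.347), -0.44 for Lmnb2 (adjusted p = 0.264) and -0.11 for Lbr. Runx1 was not tested there.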
